A study of Mus musculus with 15 samples.

Results

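Collagen chain genes were taken as every gene whose symbol is Col, a number, the letter a and a number. The rule found 44 of the 56953 genes in each deposited table. They were grouped as 11 fibrillar chains, 8 basement membrane chains, 6 microfibrillar chains of type VI and 19 others. The others were 9 fibril-associated, 3 short-chain network and 4 transmembrane chains, with Col7a1, Col26a1 and Col28a1 remaining.

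Collagen chains wind into a triple helix, and a type can need the products of several genes in a fixed ratio. Fibrillar types such as I and III carry tension in the connective tissue of muscle and are made mainly by fibroblast-like cells. Type IV and the endostatin-bearing types XV and XVIII belong to the basement membrane that wraps each myofibre and the stem cell beneath it. Type VI forms beaded microfilaments next to that layer and is known for muscle disease when a chain is lost. Type V chains, which start and limit fibril growth, are also known as products of the muscle stem cell itself.

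Bulk RNA sequencing covered 15 libraries of wild-type 129 mice, described by the labels as 10-week-old males (n = 10 animals). The muscle stem cell (MuSC) libraries were 3 taken by biopsy before the animals received their own MuSCs back, and 3 taken afterwards from muscle outside the grafted area, in mice 5, 6 and 11. The quadriceps femoris libraries were 6 from mice that had received the autologous graft and 3 from sham-operated mice. How long after the graft tissue was taken, how many cells were given and how MuSCs were sorted are not stated in the labels. The muscle libraries came in 2 tables, here called the 2-sham table (transplanted 4, 14 and 94, sham 3 and 192) and the 1-sham table (transplanted 5, 6 and 11, sham 12). The mouse numbers were taken as separate animals, and whether each library is a separate extraction is not stated. Transplanted 5, 6 and 11 carry the mouse numbers of the MuSC libraries, so the grafted muscle of the 1-sham table and the MuSCs were taken as the same animals.

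Total estimated counts were 17094753 to 22981420 per library. In the MuSC libraries the myogenic regulators Pax7 (11.8 to 21.6 TPM, the authors' transcript level scaled for length and library total), Myf5 (86.6 to 155) and Myod1 (532 to 958) were present throughout. Among the 10 muscle stem cell markers, Calcr (at most 0.03 TPM) and Chrdl2 (at most 0.51 TPM) were near 0 there. The endothelial marker Pecam1 was at most 0.49 TPM in MuSCs, against 15.5 to 27.6 TPM in muscle. The 8 pericyte and smooth muscle markers summed to 173 to 1061 TPM in MuSCs and to 117 to 159 TPM in muscle. Most of the MuSC sum was Acta2, at 172 to 1055 TPM. The 10 myofibre markers summed to 295 to 4230 TPM in MuSCs and to 63451 to 86129 TPM in muscle. The label of male was not met by the sex-linked genes: 4 Y-linked genes summed to at most 0.31 TPM in any library. Xist was at 2.63 to 84.1 TPM in 14 of the 15 libraries and at 0.01 TPM in transplanted 4. The MuSC libraries fall into set A (after 5, before 5 and before 11) and set B (after 6, after 11 and before 6) by the form of their sample codes. Long transcripts counted for more in set A and less in set B: the slope of the deviation of log2 CPM (counts scaled to the library total) on log2 length was 0.17 to 0.27 in the first and -0.35 to -0.13 in the second. Collagen transcripts are long, so this slope stands beside every MuSC comparison given here.

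For 35 of the 44 genes the RefSeq table of promoters (GRCm38.p6) held a start site under the same symbol. Sequences are shown for the chains whose partners behaved most differently: Col4a1 and Col4a2, whose levels kept a steady ratio, and Col1a2, whose level lay far above that of its partner Col1a1 in MuSCs. Col4a1 and Col4a2 start 21 bases apart on opposite strands, so that 22 bases at chr8:11312805-11312826 are transcribed from both. They are given 5′ to 3′ on the strand of each gene, minus for Col4a1 and plus for Col4a2, with the GC box GGGCGG or its complement in capitals. The last sequence is the 250 bases before the Col1a2 start, chr6:4505368-4505617, plus strand, with GGGCGG and CCAAT in capitals.
Col4a1: ttggagacgCCGCCCgcgcact
Col4a2: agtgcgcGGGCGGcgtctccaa
Col1a2: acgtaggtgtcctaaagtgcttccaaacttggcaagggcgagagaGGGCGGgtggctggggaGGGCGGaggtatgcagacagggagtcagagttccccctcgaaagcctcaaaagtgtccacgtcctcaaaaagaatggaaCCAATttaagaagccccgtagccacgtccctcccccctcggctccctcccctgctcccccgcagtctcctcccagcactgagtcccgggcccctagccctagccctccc

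The Col1a2 stretch held GGGCGG 2 times and CCAAT 1 time on the given strand, neither on the other strand, and TATAAA on neither. The 250 bases before the start were searched on both strands, in 38 windows for the 35 matched collagen genes. GGGCGG was found in 22 of the 38 (21 of the 35 genes) and in 32.7% of all 32851 windows. CCAAT was found in 13 of the 38 and in 33.8% of all windows, and TATAAA in 5 of the 38 and in 12.4%. The 3 motifs share no overlapping match in the stretches shown, and a match describes letters only.

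**Figure D1:**
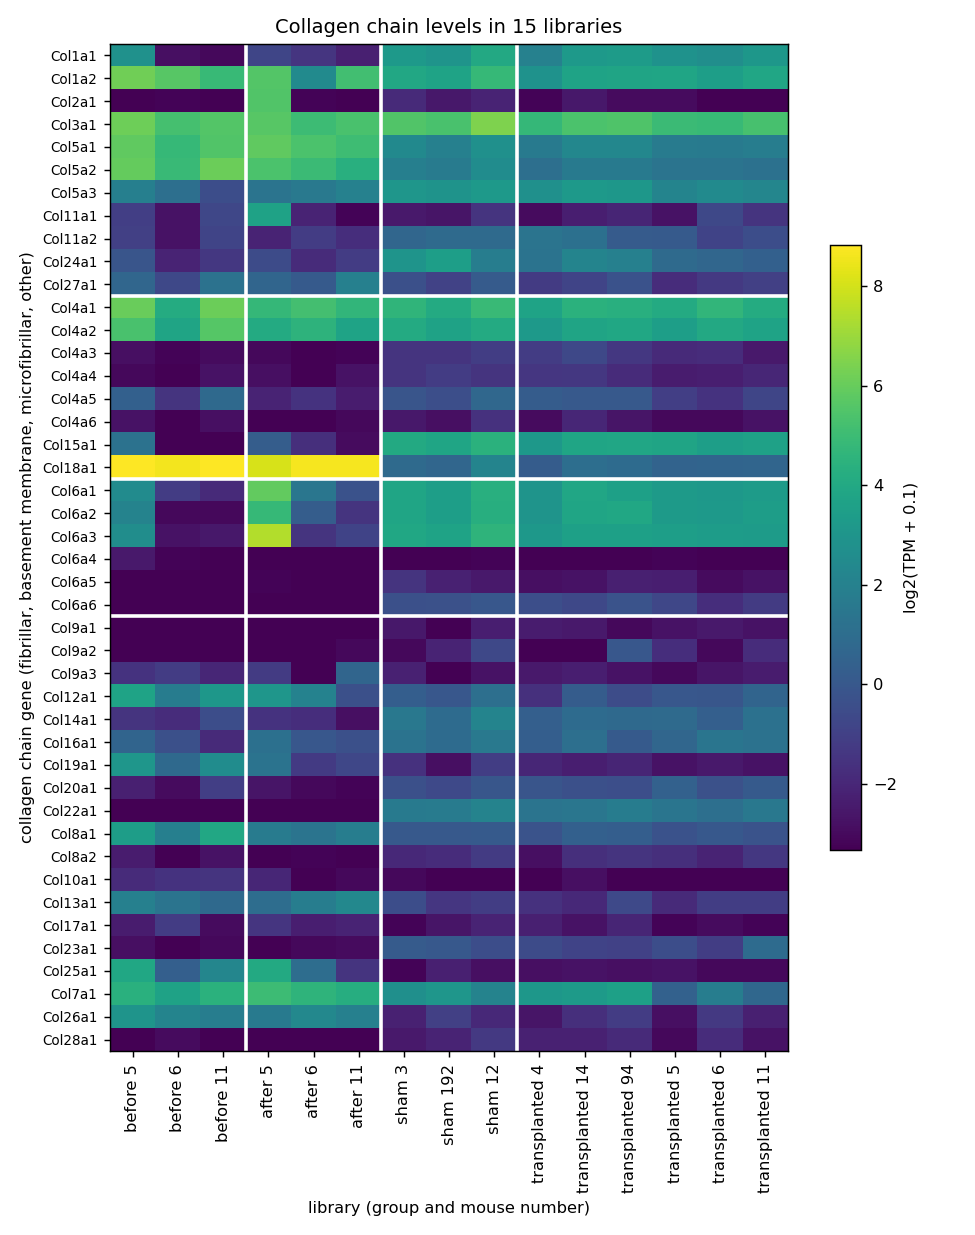
Levels of the 44 collagen chain genes (rows, in the order fibrillar, basement membrane, microfibrillar, other, separated by white lines) in the 15 libraries (columns), as log2(TPM + 0.1). Col18a1 is the brightest row in the 6 MuSC libraries. Of the type VI chains, Col6a1, Col6a2 and Col6a3 are bright in muscle and in the MuSC library after 5.

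The first question was which collagen chains each tissue held. MuSCs and muscle were quantified in separate tables, so the order of their levels is described and no test was made between them. Over the 6 MuSC libraries 17 chains had a median above 1 TPM, and over the 9 muscle libraries 19 did. In every library 12 chains were at or under 1 TPM, among them Col4a3, Col4a4 and Col4a6, Col6a4 to Col6a6, and the cartilage chains Col9a1, Col9a2 and Col10a1. In 8 of the 44 chains every MuSC library was above every muscle library (background 20.7% of the 29160 genes listed above 0 TPM in any library), in 11 every muscle library was above every MuSC library (background 9.84%), and 25 overlapped.

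Col18a1, the core protein of a basement membrane proteoglycan that releases endostatin, dominated the MuSC libraries. Its level was 452 TPM in before 5, 389 in before 6, 446 in before 11, 272 in after 5, 403 in after 6 and 403 in after 11. All 6 were high, after 5 was the lowest, and the groups before and after overlapped. In muscle Col18a1 was 1.06 to 4.36 TPM, highest in sham 12. Col18a1 alone made up 29.9% (after 5) to 65.6% (after 11) of summed collagen TPM in MuSCs, and 0.78% to 1.36% in muscle. Its relative Col15a1, which binds the basement membrane to the fibrils outside it, had the opposite order. Col15a1 was 8.66 to 21.3 TPM in muscle and 0 to 2.28 TPM in MuSCs, with the highest MuSC values in both libraries of mouse 5.

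The main type IV chains, Col4a1 and Col4a2, which assemble into the common network of basement membranes, were abundant in both tissues. Col4a1 was 65.3, 17.8 and 68.7 TPM in before 5, 6 and 11, and 26.9, 36.1 and 25.1 TPM in after 5, 6 and 11. Col4a2 was 40.6, 13.4 and 49.5 TPM before, and 17.3, 23.1 and 13.1 TPM after, in the same order of mice. Both were high in before 5 and before 11, which belong to set A, and before 6 lay below or within the values after. Despite that spread the ratio of Col4a1 to Col4a2 TPM stayed between 1.32 and 1.91 in MuSCs (median 1.56). In muscle, with Col4a1 at 13.2 to 29.5 TPM and Col4a2 at 9.36 to 17.2 TPM, it was 1.35 to 1.71 (median 1.45). The chains of the specialised networks were low: Col4a3 and Col4a4, which join Col4a5 in kidney and lung, reached 0.05 TPM at most in MuSCs and 0.53 TPM in muscle, and Col4a6 0.23 TPM. Col4a5 was 0.09 to 1.69 TPM in MuSCs, with the 2 highest values in before 5 and before 11, and 0.24 to 1.54 TPM in muscle.

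Among the fibrillar chains, the type I partners stood far apart in MuSCs. Col1a2, the α2 chain of the main fibrillar collagen, was 72.5, 51.3 and 28.7 TPM in before 5, 6 and 11, and 47.5, 5.59 and 35.1 TPM in after 5, 6 and 11. Col1a1, the α1 chain that makes up most of the type I molecule, was 7.03, 0.04 and 0.02 TPM before, and 0.49, 0.27 and 0.11 TPM after. Only before 5 held Col1a1 above 1 TPM, and Col1a2 was far higher there too. The ratio of Col1a1 to Col1a2 TPM was 0.000696 to 0.0970 in MuSCs (median 0.00672) and 0.53 to 0.73 in muscle (median 0.59), with no overlap. In muscle the levels of Col1a1 were 3.98 to 16.2 TPM and of Col1a2 7.11 to 27.7 TPM, both lowest in transplanted 4 and highest in sham 12.

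Col3a1, the chain of type III that forms fine fibres around muscle fibres, was the most abundant collagen chain of muscle, at 27.4 to 87.4 TPM, and was of like level in MuSCs at 32.01 to 70.5 TPM. The type V chains Col5a1 and Col5a2 were higher in every MuSC library than in every muscle library, at 27.8 to 58.0 TPM and 20.1 to 67.8 TPM against 3.08 to 6.81 TPM and 2.03 to 5.83 TPM. The third type V chain, Col5a3, had the reverse order, 0.62 to 3.88 TPM in MuSCs and 4.36 to 9.49 TPM in muscle. Fibrillar chains made up a median of 24.3% of summed collagen TPM in MuSCs and 43.7% in muscle. Basement membrane chains made up 69.3% and 26.1%, type VI chains 0.43% and 19.3%, and the others 7.23% and 9.03%. The type VI share in MuSCs ran from 0.03% to 28.7%, the highest in after 5, and its median was 0.23% without that library.

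**Figure D2:**
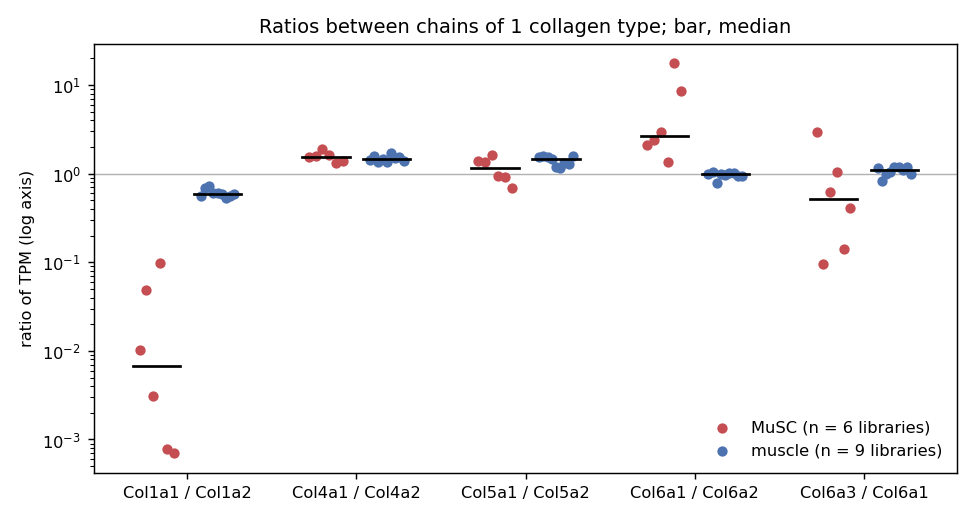
Ratio of TPM between 2 chains of the same collagen type in each of the 6 MuSC and 9 muscle libraries, on a log axis, with black bars at the median. Col4a1 over Col4a2 lies between 1.32 and 1.91 in all 15 libraries, whereas Col1a1 over Col1a2 lies at or under 0.0970 in MuSCs and at or above 0.53 in muscle.

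Type VI levels in MuSCs were high in the libraries of 1 mouse. The 3 main chains, Col6a1, Col6a2 and Col6a3, which combine into one monomer, were near equal in muscle, at 7.62 to 20.0, 7.72 to 19.5 and 8.80 to 23.7 TPM. In MuSCs Col6a1 was 5.79, 0.35 and 0.17 TPM in before 5, 6 and 11, and 59.3, 2.64 and 0.73 TPM in after 5, 6 and 11. Col6a3 was 6.11, 0.05 and 0.07 TPM before, and 173, 0.25 and 0.45 TPM after. Both MuSC libraries of mouse 5 were high, after 5 most of all, and the other 4 were low. After 5 also had the highest Col2a1, the chain of cartilage type II, at 46.2 TPM against at most 0.17 TPM in the other 14 libraries, and was the only MuSC library with Col11a1, which nucleates type II fibrils, above 1 TPM, at 12.6 TPM. Elsewhere in MuSCs Col2a1 was at most 0.01 TPM and Col11a1 at most 0.51 TPM.

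Some markers of other cells were also highest in after 5, while other members of the same lists were near 0. The 6 chondrocyte markers summed to 67.3 TPM there and to 6.25 to 10.3 TPM in the other 5 MuSC libraries. The cartilage proteoglycan Acan was 47.8 TPM in after 5 and at most 0.56 TPM elsewhere, while Matn1 and Cnmd were at 0 in after 5. The 12 fibroadipogenic markers summed to 343 TPM in after 5 and to 119 to 303 TPM in the others. The largest part of the sums in after 5 and after 11 was Gsn, at 156 and 293 TPM. Within that list Smoc2 was 131 TPM and Ly6a 54.2 TPM in after 5, against at most 10.6 and 6.22 TPM in the other MuSC libraries. There Pdgfra was 0.98 TPM in after 5, Cd34, Mfap5, Cd248 and Clec3b were 0.09 to 0.13 TPM, and Lum, Dpt, Pi16 and Dpp4 were at 0. The part of other cells in the type II, VI and XI levels was not tested. In bulk samples, fewer or more cells of a type and less or more RNA per cell cannot be told apart.

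The remaining chains split the tissues in both directions. Col8a1 (short-chain network, 2.45 to 15.2 TPM), the transmembrane chain Col13a1 of the neuromuscular junction (1.70 to 5.03 TPM), the transmembrane chain Col25a1, needed for motor innervation (0.26 to 16.4 TPM), Col7a1 (12.6 to 31.5 TPM) and Col26a1 (3.00 to 7.68 TPM) were higher in every MuSC library than in every muscle library. For Col7a1 this order held in TPM, whereas its CPM overlapped, at 17.6 to 43.4 in MuSCs and 5.68 to 30.02 in muscle. Col22a1, a fibril-associated chain of the myotendinous junction, had 0 counts in all 6 MuSC libraries, which allows up to 0.026 CPM over the 6 together, for counting error only. In muscle it was 2.06 to 4.27 TPM. Col6a6 and Col9a1 also had 0 counts in the 6 MuSC libraries. Col14a1, which binds the surface of fibrils, was 0.04 to 0.64 TPM in MuSCs and 1.16 to 4.32 TPM in muscle.

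The length that the deposited values used for a gene could be worked out from its count and its FPKM, and it differed between libraries. For Myod1, a gene with 1 coding transcript, this implied effective length was 1566 to 1632 bases. Of the 10 collagen chains with at least 100 counts in each MuSC library, 8 had overlapping groups whose means differed by at most 6.16%, among them Col1a2, Col3a1, Col5a1, Col5a2, Col4a2 and Col18a1. Col7a1 also overlapped, with a mean 21.1% longer after. Col4a1 stood apart. Its implied length was 6372, 6379 and 6297 bases in before 5, 6 and 11, and 5273, 5500 and 4901 bases in after 5, 6 and 11. The 3 libraries after were all shorter than the 3 before, by 17.7% in the mean, and muscle was at 6130 to 6348 bases. The Col4a1 annotation used here has 3 coding transcripts of 545 to 6615 bases. With 3 libraries against 3 an exact permutation test cannot go below 0.10, so none was made. Of the 8653 genes with 100 counts in every MuSC library, 4.08% were shorter after with no overlap, 1.36% were so by at least 10% of the mean, and 2.68% were longer with no overlap. Of the 10 collagen chains, Col4a1 alone was shorter without overlap and 0 were longer, and it was picked after its values were seen. Set A and set B both held short values after and long values before.

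Col7a1, the chain of anchoring fibrils, had an implied length far under its coding transcripts. These are 9198 and 9250 bases long, and the implied length was 1312 to 1930 bases in MuSCs and 2424 to 4964 bases in muscle. The gene also has 6 annotated retained-intron transcripts, the longest of 2770 bases. Which transcripts gave the counts was not tested, so whether a TPM of Col7a1 stands for mRNA of the full chain is not known here. Col3a1 was at 3450 to 4134 bases in MuSCs and 2784 to 3385 bases in muscle, against a coding transcript of 5564 bases. In sham 192 the fibrillar chain Col24a1 had an implied length of 2153 bases, against 3417 to 4636 bases in the other muscle libraries. Its TPM of 10.9 in sham 192, the highest of all libraries, goes with that short length: its CPM there (19.3) was below that of sham 3 (26.4).

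**Figure D3:**
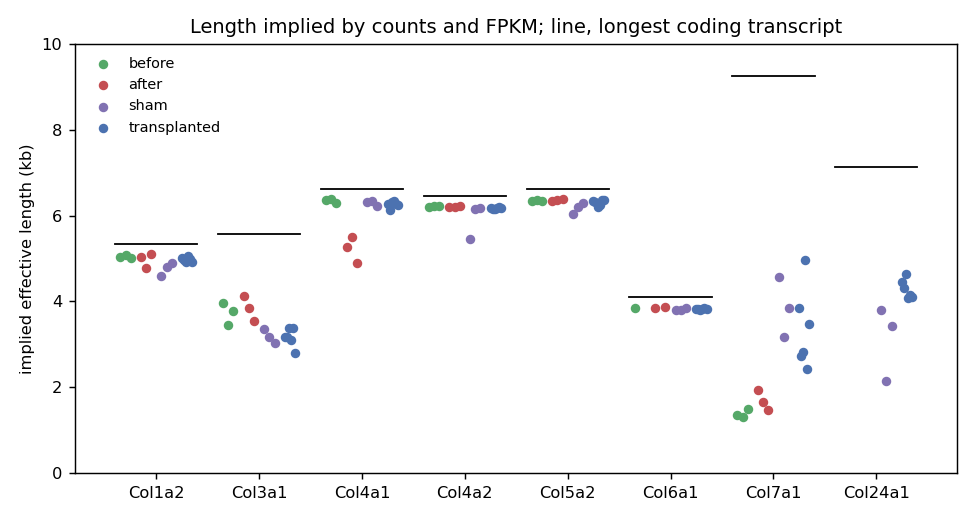
Effective length implied by count and FPKM, in kb, for 8 collagen chains, 1 point per library with at least 100 counts, coloured by group, with a black line at the longest annotated coding transcript. Col4a1 lies at 4.9 to 5.5 kb in the 3 MuSC libraries after and above 6 kb in the other groups, and Col7a1 lies far under its line throughout.

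The second question was whether the collagen chains of endogenous MuSCs differed after transplantation. No chain passed the test: of 13512 genes tested with edgeR, 0 had an adjusted p under 0.05 (0% of genes), with 305 at an unadjusted p under 0.05 and 16 called by DESeq2 (0.118%), none of them a collagen. Of the 44 chains 26 passed the filter on low counts. Their log2 difference, after minus before, was negative in 15 (background 48.6% of genes) and positive in 11, with a median of -0.08 beside 0.02 over all genes. By class the median was 0.02 in 10 fibrillar chains, -0.66 in 4 basement membrane chains, 3.28 in 3 type VI chains and -0.19 in 9 others. The smallest adjusted p of any chain was 0.873. Within set A the median was -0.39 and within set B 0.40, and without after 5 it was -0.51.

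An unadjusted p under 0.05 was reached by 3 chains lower after (0.71% of genes tested) and 1 chain higher after (1.55% of genes tested), and none of the 4 held after adjustment. Col7a1 was 20.5, 17.6 and 24.1 CPM in before 5, 6 and 11, and 43.4, 43.2 and 30.5 CPM in after 5, 6 and 11. Every value after was above every value before, and the log2 difference was 0.91 ± 0.28 (SE; adjusted p = 0.873 with edgeR). It was the only 1 of the 26 chains tested that lay higher without overlap. That count is near the background of 3.35% of genes. With the longer implied length after, the difference in TPM was smaller, at 18.6 to 31.5 TPM after and 12.6 to 21.8 TPM before, and the groups overlapped on that scale.

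Col8a1, a chain of the hexagonal networks laid down by vascular and other proliferating cells, was 38.3, 19.2 and 55.1 CPM before and 11.2, 13.0 and 18.8 CPM after. All 3 libraries after were below all 3 before, with a log2 difference of -1.39 ± 0.44 (adjusted p = 0.873). Col14a1 was the other of 2 chains, among the 26 tested, that lay lower without overlap (background 2.98%). Its level was 0.85, 0.87 and 2.27 CPM before and 0.60, 0.64 and 0.23 CPM after, with a log2 difference of -1.42 ± 0.67. These levels of Col14a1 are 80 counts in the 3 libraries before and 28 in the 3 after. In TPM the groups overlapped, since before 6 (0.19) lay below after 5 (0.24) and after 6 (0.20). Within set A and set B the log2 differences were 0.97 and 1.06 for Col7a1, -2.05 and -0.28 for Col8a1, and -1.36 and -0.99 for Col14a1. Col8a1 and Col14a1 are named because of this separation, after their values were seen.

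Mice 5 and 6 each had both MuSC libraries in the same set. Mouse 11 had its library before in set A and its library after in set B, so its difference also spans the sets. Within the mice, 3 of the 26 chains tested were lower after in 3 of 3 (background 10.3%) and 4 were higher in 3 of 3 (background 10.8%). The lower ones were Col8a1, Col14a1 and Col19a1, a fibril-associated chain made by muscle cells and some neurons. Col19a1 was 26.04, 7.25 and 18.6 CPM before and 7.38, 1.54 and 2.10 CPM after, with a log2 difference of -2.23 ± 0.74 (adjusted p = 0.873). The groups overlapped because before 6 was as low as after 5. Col4a5 was 4.12, 0.9996 and 6.07 CPM before and 0.60, 1.17 and 0.41 CPM after, lower in mice 5 and 11 and not in mouse 6, with a log2 difference of -2.35 ± 0.77 (adjusted p = 0.873). It was -3.06 within set A and -0.34 within set B, against -1.59 and -1.99 for Col19a1.

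The higher ones were Col7a1 and the 3 main type VI chains. Col6a1 was 16.2, 1.44 and 0.49 CPM in before 5, 6 and 11, and 163, 11.1 and 3.16 CPM in after 5, 6 and 11. Each mouse was higher after, yet the groups overlapped because before 5 exceeded after 6 and after 11. The log2 differences were 3.28 ± 1.72 for Col6a1, 2.79 ± 2.06 for Col6a2 and 4.48 ± 2.53 for Col6a3 (adjusted p = 0.873 for each). Without after 5 they were 0.22 ± 1.26, -0.53 ± 1.79 and -2.23 ± 1.65. That fit keeps before 5, the highest remaining library for all 3 chains, without its partner. In mice 6 and 11 Col6a2 went from 0.06 and 0.05 CPM to 4.47 and 1.05 CPM. Col6a3 went from 0.37 and 0.39 CPM to 1.49 and 1.58 CPM there. The values before in these mice rest on 1 and 1 counts for Col6a2, and on 6 and 8 counts for Col6a3. Col11a1 went from 3.88 ± 1.97 to -1.43 ± 1.16 when after 5 was left out. Within set A, where after 5 is the only library after, 2 chains passed, Col11a1 (adjusted p = 0.00468) and Col2a1 (0.00333), beside 43 of 14725 genes (0.292%), with the spread taken from the 2 libraries before.

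Among the abundant chains no difference passed the test. The log2 difference was -0.01 ± 0.39 for Col18a1, 0.12 ± 0.27 for Col5a1, -0.57 ± 0.30 for Col5a2, 0.79 ± 0.66 for Col5a3 and -0.09 ± 0.27 for Col3a1. It was -0.71 ± 0.46 for Col4a1, -0.62 ± 0.44 for Col4a2, -0.69 ± 0.70 for Col1a2 and -2.73 ± 1.77 for Col1a1, for which before 5 held 29.0 CPM and the other 5 libraries 0.10 to 1.996 CPM. Without before 5, Col1a1 came to 3.03 ± 0.95. When the trend with length was taken out, Col4a1 came to 0.00871, Col4a2 to 0.0736, Col5a2 to 0.00644 and Col3a1 to 0.11, each positive where it had been negative.

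**Figure D4:**
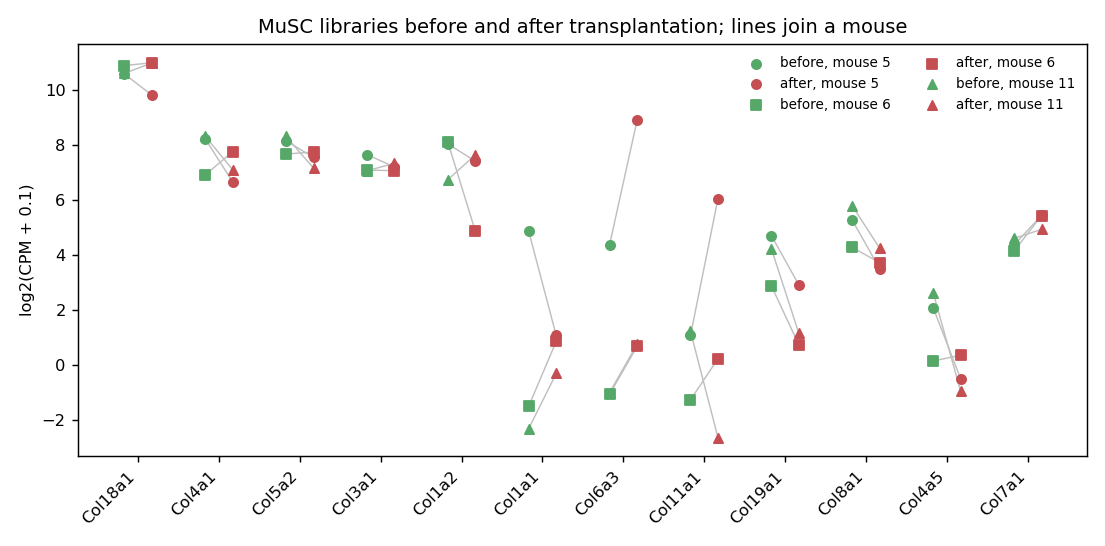
Level of 12 collagen chains in the 6 MuSC libraries as log2(CPM + 0.1), green before and red after transplantation, with a marker shape and a grey line for each mouse. Col7a1 lies higher and Col8a1 lower in all 3 libraries after, and neither passed the test. Col6a3 and Col11a1 are highest in after 5, and Col6a3 is next highest in before 5.

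Genes that fold, process, bind or sense collagen also gave no call in MuSCs. Of 52 such genes tested in 6 lists, 0 passed. In the list of chain modification and folding 15 of 19 were positive (background 51.4%), with a median log2 difference of 0.32. Its highest signed statistic was that of Plod1, a lysyl hydroxylase, at 0.66 ± 0.28, and its lowest that of Mia3, a collagen export receptor, at -0.24 ± 0.65. In propeptide processing and crosslinking the extremes were the lysyl oxidase Loxl4 at 2.73 ± 1.19, which was 15.4 CPM in after 5 and at most 1.64 CPM elsewhere, and the propeptidase Adamts2 at -0.74 ± 0.71. Among proteoglycans and glycoproteins of fibril assembly they were Fn1, fibronectin, at 0.62 ± 0.50, and Sparc, a glycoprotein that binds collagen, at -0.47 ± 0.25. Sparc was 937, 904 and 896 CPM before and 645, 718 and 619 CPM after, without overlap (adjusted p = 0.873). Among degradation genes they were Mmp14 (0.29 ± 0.29) and its inhibitor Timp2 (-0.49 ± 0.29), among receptors Ddr1 (0.11 ± 0.40) and Mrc2 (-0.88 ± 0.49), and among TGF-beta genes Ltbp2 (2.26 ± 1.20) and Tgfb2 (-0.77 ± 0.57). Ltbp2 was 95.9 CPM in after 5 and 3.12 to 14.9 CPM in the other 5. Without after 5 the difference of Ltbp2 was -0.29 ± 0.68, and that of Loxl4 was 0.38 ± 0.75.

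The third question was how quadriceps muscle of grafted mice compared with that of sham-operated ones. Collagen chains were mostly lower in transplanted muscle, but none passed the test. Of 14375 genes, 0 had an adjusted p under 0.05 with edgeR (0% of genes), 1018 had an unadjusted p under 0.05, and DESeq2 called 6 (0.0417%), none of them a collagen. Of the 44 chains 35 passed the filter. Their log2 difference, transplanted minus sham, was negative in 31 (background 50.1% of genes) and positive in 4 (background 49.9%), and the median was -0.38 beside -0.0005 over all genes. The median was -0.42 in 10 fibrillar, -0.41 in 7 basement membrane, -0.35 in 5 type VI and -0.28 in 13 other chains. The smallest adjusted p was 0.686.

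The size of the median depended on 1 library. Sham 12 had the highest summed collagen level, 322 TPM, against 191 and 224 TPM in the other shams and 131 to 205 TPM in the transplanted libraries. Without sham 12, which leaves the 1-sham table with no control, the median was -0.17, and 24 of 35 chains were negative. The 2-sham table alone gave -0.19 and the 1-sham table alone, with sham 12 as its single control, gave -0.57. Without sham 192, the lower of the other shams, the median was -0.53. Without transplanted 4, the library that differs in Xist, it was -0.29.

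Sham 12 was also set apart by markers of other cells. The 8 adipocyte markers summed to 1448 TPM in sham 12, to 213 and 571 TPM in the other shams, and to 156 to 629 TPM in transplanted muscle, with Adipoq at 92.9 TPM in sham 12 and 3.35 to 32.9 TPM in the other 8 libraries. The 12 fibroadipogenic markers summed to 820 TPM in sham 12 and to 298 to 430 TPM in the other 8. The 9 tenocyte markers summed to 75.4 TPM in sham 12 and to 12.5 to 54.2 TPM in the other 8, and the 8 macrophage markers to 88.2 TPM and 33.6 to 57.8 TPM. Of the 8 tenocyte markers tested all 8 were negative, transplanted minus sham, with a median log2 difference of -0.52, and of -0.69 without sham 12. For the 8 adipocyte markers, all negative, the medians were -1.43 and -0.99. Endothelial markers summed to 131 TPM in sham 12 and 78.9 to 125 TPM elsewhere, and myofibre markers to 82666 TPM and 63451 to 86129 TPM. The part of these cells in the collagen levels was not tested.

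Lower levels at an unadjusted p under 0.05 were found in 10 chains (4.08% of genes tested), and higher levels in 0 (3.01%). They were the fibrillar Col1a2, Col3a1, Col5a2, Col24a1 and Col27a1, the basement membrane Col15a1 and Col18a1, Col6a3, and the fibril-associated Col14a1 and Col22a1. Col3a1 was 80.1 to 120 CPM (median 102) in the 6 transplanted libraries, and 138, 104 and 198 CPM in sham 3, 192 and 12. Sham 192 lay within the transplanted range and sham 12 far above it. The log2 difference of Col3a1 was -0.53 ± 0.18 (adjusted p = 0.686), and -0.20 ± 0.18 without sham 12. Col5a2 behaved alike, with a log2 difference of -0.54 ± 0.14 (adjusted p = 0.686) and -0.28 ± 0.16 without sham 12. Col18a1 gave -0.61 ± 0.21 and Col1a2 -0.43 ± 0.17, and -0.24 ± 0.24 and -0.27 ± 0.22 without sham 12.

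In CPM, only 2 chains lay below the shams within both tables, Col24a1 and Col22a1, against 2.8% of genes, and 0 lay above them (background 3.23%). Both were picked out after their values were seen. Col24a1, a fibrillar chain known from bone and cornea, was 9.68, 16.2 and 14.1 CPM in transplanted 4, 14 and 94 beside 26.4 and 19.3 CPM in sham 3 and 192. In the 1-sham table it was 6.95, 5.89 and 5.12 CPM in transplanted 5, 6 and 11 beside 8.83 CPM in sham 12. The 2 tables sat at different levels, and in each the transplanted libraries were the lower ones. The log2 difference was -0.70 ± 0.17 (adjusted p = 0.686) and -0.78 ± 0.22 without sham 12 (adjusted p = 0.9998). DESeq2 gave Col24a1 an adjusted p of 0.173, the smallest of the chains.

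Col22a1 was 15.01 to 21.0 CPM (median 19.5) in the 6 transplanted libraries and 22.2, 22.9 and 24.6 CPM in sham 3, 192 and 12. It was the only chain whose 2 groups did not overlap in CPM across both tables (background 0.96% lower and 1.15% higher without overlap). In TPM they overlapped, since transplanted 94 (3.37) lay above sham 3 (3.13) and sham 192 (3.27). The log2 difference was -0.28 ± 0.11 (adjusted p = 0.686), and -0.20 ± 0.14 without sham 12. Sham 12 did not stand far above the other shams in Col22a1.

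The main type VI chains, Col6a1, Col6a2 and Col6a3, were close to one another in every muscle library. Col6a1 was 26.8 to 47.0 CPM (median 36.8) in transplanted muscle and 48.3, 34.3 and 57.6 CPM in sham 3, 192 and 12, and the groups overlapped through sham 192. The log2 differences were -0.37 ± 0.18 for Col6a1, -0.28 ± 0.18 for Col6a2 and -0.35 ± 0.14 for Col6a3, and -0.17 ± 0.22, -0.08 ± 0.23 and -0.22 ± 0.18 without sham 12. The low chain Col6a6 gave -0.44 ± 0.28 and Col6a5 -0.05 ± 0.44, and -0.0721 ± 0.33 and 0.29 ± 0.60 without sham 12. For type I, Col1a1 was 20.7 to 49.3 CPM in transplanted muscle and 46.9, 35.9 and 69.0 CPM in the shams, with a log2 difference of -0.42 ± 0.23, and of -0.18 ± 0.29 without sham 12.

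The network chains of the basement membrane gave small differences. Col4a1 was 76.4 to 148 CPM (median 109) in transplanted muscle and 139, 89.3 and 138 CPM in sham 3, 192 and 12, and transplanted 6 was the highest library of all. The log2 difference was -0.21 ± 0.16 for Col4a1 and -0.08 ± 0.14 for Col4a2. For Col15a1 it was -0.38 ± 0.16 and stayed at -0.30 ± 0.20 without sham 12. Col4a3 (-0.41 ± 0.35), Col4a4 (-0.41 ± 0.28) and Col4a5 (-0.53 ± 0.31) were low, and Col4a3 and Col4a5 became positive without sham 12, at 0.28 ± 0.31 and 0.17 ± 0.28, while Col4a4 came to -0.20 ± 0.35.

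Of the other chains, the lowest differences were those of Col19a1 (-0.92 ± 0.55), Col27a1, a fibrillar chain of cartilage (-0.82 ± 0.25), and Col14a1 (-0.79 ± 0.25). Without sham 12 they were -0.0566 ± 0.68, -0.53 ± 0.32 and -0.67 ± 0.34. Col19a1 was near the floor, with 44 counts over the transplanted libraries and 39 over the shams. The highest were those of Col11a1 (0.18 ± 0.48), Col8a1 (0.12 ± 0.17) and Col20a1 (0.12 ± 0.21), with Col11a1 at 0.84 ± 0.66 without sham 12. Col7a1 differed between the tables more than between the groups: it was 21.1 to 30.0 CPM in the 2-sham table and 5.68 to 12.05 CPM in the 1-sham table, with sham 12 the highest of the second. Its log2 difference was -0.23 ± 0.20, and 0.17 ± 0.17 without sham 12. Col5a1 gave -0.28 ± 0.19 and Col5a3 -0.20 ± 0.14, and -0.00653 ± 0.22 and 0.0579 ± 0.14 without sham 12.

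**Figure D5:**
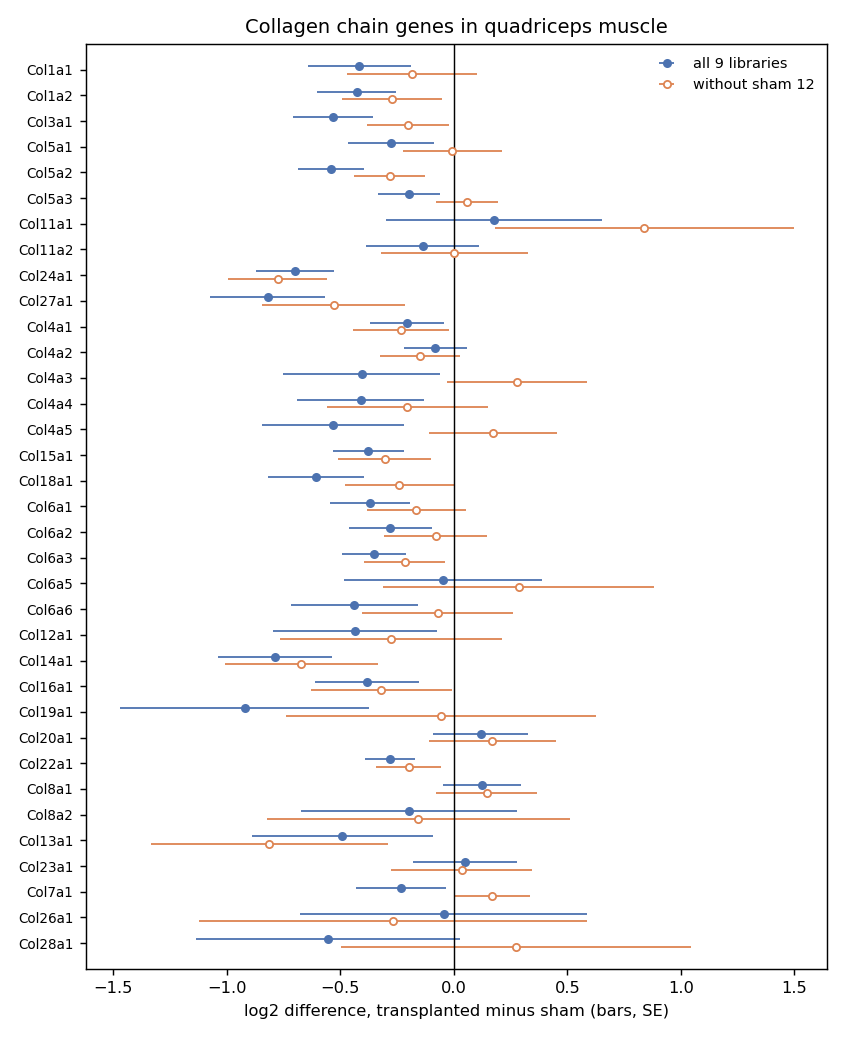
Log2 difference, transplanted minus sham, of the 35 collagen chains tested in quadriceps muscle, with bars of 1 SE, from all 9 libraries (filled blue) and without sham 12 (open orange). Points lie left of 0 in 31 chains with all libraries and in 24 without sham 12.

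Of 69 genes in the 6 lists around the collagens, 0 passed. All 12 proteoglycans and glycoproteins of fibril assembly were negative (background 50.1%), with a median of -0.40, and 6 had an unadjusted p under 0.05 (7.08% of genes tested). Their extremes in signed statistic were Sparc at -0.43 ± 0.13 and the small proteoglycan Bgn at -0.20 ± 0.24. Sparc was 69.6 to 144 CPM in transplanted muscle and 119, 83.4 and 206 CPM in sham 3, 192 and 12. Of 12 processing and crosslinking genes 11 were negative (median -0.26), from Pcolce, an enhancer of propeptide cleavage, at -0.35 ± 0.16, to Loxl4 at 0.06 ± 0.59. Without sham 12 the fibril assembly list had 10 of 12 negative, a median of -0.27 and 0 at an unadjusted p under 0.05, and the processing list 6 of 12 negative and a median of 0.00740.

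The other lists were nearer to 0. Chain modification and folding had 10 of 19 negative and a median of -0.03, from the chaperone Fkbp10 (-0.78 ± 0.24) to the prolyl hydroxylase P3h1 (0.17 ± 0.14). Degradation genes had a median of -0.13, from Mmp14 (-0.32 ± 0.17) to Timp4 (0.51 ± 0.20). Collagen receptors had a median of -0.10, from Ddr2 (-0.32 ± 0.18) to Ddr1 (0.22 ± 0.12), and TGF-beta genes -0.06, from Postn (-0.41 ± 0.19) to Tgfbr1 (0.06 ± 0.12). Without sham 12 the medians of these 4 lists were 0.00831, 0.12, -0.0321 and -0.0397.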

How the data were processed

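Groups came from the labels, and for muscle from the titles, since the sham libraries carry the same treatment entry as the grafted ones. The authors deposited estimated counts, TPM and FPKM per gene in 3 tables, per the file headers. Of the estimated counts 7.99% were not whole, and all were rounded before testing. The authors' TPM and FPKM are scaled for length and library total. Aligner and quantifier names were not given in the sources used here, and the builds GRCm38 and mm10 stand in the submitters' processing notes. Another 3 columns matched no sample's labels and were not used.

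Counts were tested with edgeR 4.0.16 (R 4.3.3): filterByExpr (minimum count 10), TMM, glmQLFit and glmQLFTest, 2-sided, Benjamini-Hochberg over all genes, threshold 0.05. MuSCs had no covariate and muscle had the table as a term. The p-values measure the spread between these libraries. CPM are counts relative to the TMM-scaled library size. SE is the log2 difference over the root of F. DESeq2 1.42.0 was an alternative, and the fit was tested on simulated data with a set dispersion of 0.05. There it recovered 44% of 2-fold and 99% of 4-fold changes for MuSCs, and 55% and 96% for muscle. Genes with a wider spread were not simulated. Implied length is count over FPKM and library total, from at least 100 counts, set beside GENCODE M21 transcripts. Figures used matplotlib 3.10.9.

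The members and lists were chosen with earlier results of these data known. Named chains were those with a mean of at least 10 TPM in any group, all of types I, III, IV, V and VI, and the 3 highest and 3 lowest differences per comparison. In each pathway list the highest and lowest signed F were named. Chains named outside these rules, for their level or for separated groups, were picked after their values were seen. The MuSC mouse numbers pair libraries because the labels call the graft autologous. Deviations from group means correlated at 0.30, 0.36 and -0.40 for mice 5, 6 and 11, while all positive values, up to 0.55 between mice, joined libraries of the same set.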

Additional observations from a re-analysis of the deposited data

Results flagged for a closer look

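Among the 35 collagen chains tested in the 6 transplanted muscle libraries, 3 had a lowest library set far from the other 5. Chance alone gives such a gap in about 1 of 20 groups. Col18a1 was 3.91 CPM in transplanted 4 and 6.29 to 7.36 CPM in the others. Col12a1, a fibril-associated chain of tendon and fascia, was 0.931 CPM in transplanted 4 and 3.33 to 4.33 CPM in the others, and the log2 difference of Col12a1 between transplanted and sham was -0.43 ± 0.36. Transplanted 4 also had the lowest summed collagen level of the 9 muscle libraries, 131 TPM, and is the library with Xist at 0.01 TPM. Its 9 tenocyte markers summed to 12.5 TPM, against 27.6 to 54.2 TPM in the other 5 transplanted libraries. Col22a1 was 15.01 CPM in transplanted 6 and 18.9 to 21.0 CPM in the others.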

How the results depend on the processing

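No collagen chain passed in either comparison, and 0 passed under the alternatives run in both tissues except within set A (after 5 against before 5 and before 11), where Col11a1 and Col2a1 did. Genes called in MuSCs numbered 0 by edgeR, 16 by DESeq2 and 43 in set A alone. In muscle they numbered 0 with all libraries, 6 by DESeq2, 12 without a filter, 1 for the 2-sham table, 41 for the 1-sham table alone, and 0 to 4 when a library was left out (4 without sham 192, 2 without transplanted 94). The muscle collagen median of -0.38 was -0.19 and -0.57 in these tables, and -0.53 (without sham 192) to -0.17 (without sham 12) when a library was left out. With the mouse as a block, 0 genes passed, the MuSC collagen median was 0.01, and the sign of Col1a1 turned, to 0.58. Chains at an unadjusted edgeR p under 0.05 were then 2 lower and 3 higher, against 3 lower and 1 higher in the main fit. The block with length-corrected offsets gave 1.06 for Col1a1, 0.10 for Col3a1 and 0.21 for Col18a1.

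Other signs turned without a call. In MuSCs, length correction gave 0.11 for Col3a1, 0.00644 for Col5a2, 0.00871 for Col4a1, 0.0736 for Col4a2 and 0.44 for Col18a1. Set A gave -0.0610 for Col5a1. Set B gave 2.23 for Col1a1, 0.11 for Col3a1, 0.55 for Col4a1, 0.48 for Col4a2 and 0.0939 for Col18a1. Without mouse 5, an alternative added after seeing the data, Col1a1 was 2.75, Col3a1 0.10, Col18a1 0.20 and Col11a1 -1.21. In muscle, Col6a5 was 0.000324 with length correction. The 2-sham table gave 0.0531 for Col5a3, 0.27 for Col4a3, 0.17 for Col4a5 and 0.16 for Col7a1, and the 1-sham table gave 0.0344 for Col4a2 and -0.53 for Col11a1.

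Leaving out 1 MuSC library, Col1a1 ranged from -3.32 to 3.03, Col3a1 from -0.20 to 0.11, Col5a1 from -0.00716 to 0.27, Col18a1 from -0.18 to 0.27, Col6a2 from -0.53 to 8.77, Col6a3 from -2.23 to 8.65 and Col11a1 from -1.43 to 4.45. In muscle Col5a3 ranged from -0.33 to 0.0579, Col4a2 from -0.15 to 0.0352, Col4a3 from -0.67 to 0.28, Col4a5 from -0.79 to 0.17, Col7a1 from -0.44 to 0.17, Col20a1 from -0.0142 to 0.24, Col11a1 from -0.00778 to 0.84 and Col6a5 from -0.15 to 0.29. The cause was not tested. Depth limits Col14a1 and Col4a5 in MuSCs, which had 28 and 41 counts over the libraries after transplantation. Depth also limits Col1a1, Col6a2 and Col6a3, which had 4, 1 and 6 counts in before 6 and 2, 1 and 8 counts in before 11. In muscle it limits Col19a1, Col6a5 and Col11a1, which had 44, 55 and 66 counts over the transplanted libraries.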

Other observations

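Col25a1, the transmembrane collagen of motor innervation, varied widely among the MuSC libraries. It was 14.89 TPM in before 5, 16.4 TPM in after 5 and 4.74 TPM in before 11, the 3 libraries of set A, against 0.26 to 1.93 TPM in the 3 of set B. It was at most 0.11 TPM in muscle. Among the MuSC libraries, Col15a1 and the main type VI chains were highest in both libraries of mouse 5. In muscle, by contrast, sham 12 held the highest level of Col3a1 and of Col22a1, while Col24a1 and Col7a1 were set apart by the table. These are values, with no test.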
